A study of Caenorhabditis elegans with 4 samples.

Results

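Transcription factor genes of the stress response of *Caenorhabditis elegans*, 10 in number, were followed across 4 arrays. They were *zip-2*, *zip-10*, *cebp-1*, *cebp-2*, *atf-7*, *skn-1*, *pqm-1*, *hsf-1*, *daf-16* and *elt-2*, and every probe set that the array annotation gives to 1 of these 10 genes alone was taken, whatever its signal. This gave 18 of 22548 worm probe sets, for 9 of the 10 genes, and *cebp-2* had none. The question of the study was how the JNK-type MAP kinase KGB-1 changes gene expression under heavy metal stress. Wild-type animals of strain N2 Bristol and *kgb-1(km21)* mutants, grown at 20 °C on OP50 bacteria and taken at day 1 of adulthood, were incubated for 1 h in water (H2O) or in 1 mM copper sulfate. Total RNA of whole animals was hybridized to an Affymetrix array, with 1 array in each of the 4 conditions, and the authors deposited MAS5 signals. All tissues are pooled in such RNA, so that fewer cells of a type and less RNA per cell cannot be told apart.

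These factors turn different kinds of damage into transcription. SKN-1, the relative of mammalian Nrf proteins, drives detoxification genes under oxidative stress. HSF-1 drives chaperone genes when proteins misfold. DAF-16, the FOXO factor of insulin signalling, and PQM-1, a zinc finger protein, act on largely separate gene sets and respond to insulin signalling in opposite ways. ATF-7 is the bZIP factor through which the p38 kinase PMK-1 controls immune genes. ZIP-2 and its partner CEBP-2 respond to blocked translation during infection, CEBP-1 acts in axon regeneration and ZIP-10 in the response to cold. ELT-2 is the GATA factor that specifies and maintains the intestine. Several of these proteins are controlled by phosphorylation or by entry into the nucleus, which an array does not measure.

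The deposited table has no detection calls, and a signal of 100 on any array was required for a probe set to count as measured. By this rule 15 probe sets of 8 genes were tested. The other 3 stayed below 100 on every array, namely the only probe set of *cebp-1*, 1 of 3 for *skn-1* and 1 of 4 for *daf-16*. The probe set for *kgb-1* itself read 129 (H2O) and 314 (copper) in the wild type, against 179.5 (H2O) and 229 (copper) in *kgb-1* mutants. Where its probes lie relative to the *km21* deletion is not given in the sources used here, so it does not check the genotype. The log2 ratios of 18 hybridization controls had an SD of 0.18 to 0.22 between arrays. The ratio of 3′ to 5′ signal for catalase, a sign of RNA quality, was 4.61 and 4.62 without and with copper in the wild type, and 3.63 and 2.90 in *kgb-1* mutants. The same ratio for actin, in the same order, was 1.85 and 1.76 in the wild type, and 1.70 and 1.74 in *kgb-1* mutants. Both wild-type arrays were thus the higher for actin too, over a narrower range. The ratio for Gapdh (0.912 to 1.08) did not separate the genotypes. Of the tissue markers, all 6 intestinal and all 6 germline genes were measured. *hlh-1* (muscle), *rgef-1* (neurons), *bli-1* (epidermis), *gsp-3*, *spe-9*, *spe-11* and *spe-38* (sperm) and *end-3*, *med-1* and *tbx-37* (embryo) stayed below 100.

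**Figure D1:**
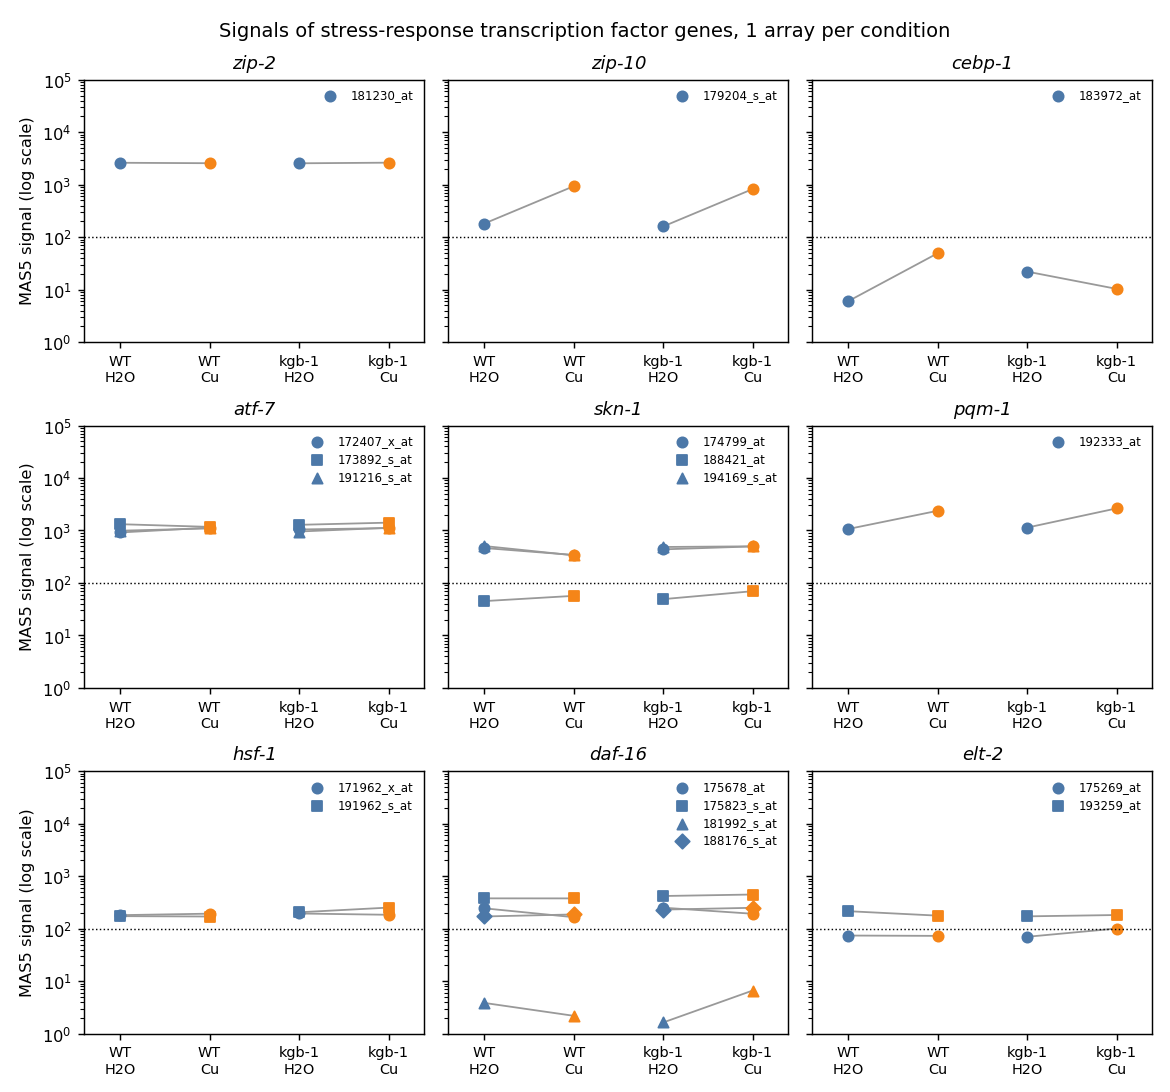
MAS5 signal (log scale) of every probe set of the 9 genes that have one on the 4 arrays, blue for H2O and orange for copper, with 1 symbol shape per probe set and grey lines joining the arrays of a genotype. The dotted line is the signal minimum of 100. *zip-10* and *pqm-1* are higher on both copper arrays, and *cebp-1* lies below the minimum throughout.

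Copper raised 2 of these genes, *zip-10* and *pqm-1*, both in the wild type and in *kgb-1* mutants. The signal of *zip-10*, which encodes a bZIP protein, went from 181 in water to 933 in copper in the wild type and from 159.8 to 825 in *kgb-1* mutants. Both copper-treated samples thus lay far above both untreated ones, 5.16-fold in each genotype. The log2 ratios of both genotypes, 2.37 and 2.37, differed by less than the SD of the hybridization controls. The log2 change shared by both genotypes, fitted by limma beside a genotype term, was 2.37 (SE 0.126, adjusted p = 9.40e-04).

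*pqm-1* was already bright without copper and rose by a smaller factor. Its signal went from 1067 to 2373 in the wild type and from 1135 to 2639 in *kgb-1* mutants. The untreated and the copper-treated samples did not overlap, and the rise was 2.22-fold in the wild type and 2.33-fold in the *kgb-1* background. The shared log2 change in limma was 1.19 (SE 0.102, adjusted p = 0.00566). Without a mean-variance trend in the moderation the call was lost (adjusted p = 0.0985).

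Of the 15 probe sets tested, these 2 (13.3%) were higher with copper at a Benjamini-Hochberg adjusted p under 0.05, none was lower, and 13 did not pass. Of all 11266 probe sets tested, 1.53% were called, 1.18% as higher and 0.346% as lower. *zip-10* and *pqm-1* were also the only members that changed by over 2-fold between treatments, and both did so upwards in both genotypes. Among all measured probe sets, 2.11% were higher and 1.08% lower by this size in the wild type, and 1.51% higher and 0.753% lower in *kgb-1* mutants. The error of the limma fit combines the disagreement between the genotypes (1 residual degree of freedom) with a trend over all probe sets (5.19 prior degrees of freedom), so that a change found in a single genotype adds to that error. The summed signal of the epidermal markers also differed by treatment, from 29789 to 36852 in the wild type and from 28618 to 36079 in *kgb-1* mutants. Of their 10 probe sets 8 were tested, and 1 was called higher, 172820_x_at of the collagen gene *sqt-3*, which holds most of the sum (23055 to 30970 and 21460.0 to 28605). That call was kept in 5 of 13 alternatives (adjusted p = 0.0131 to 0.867) and lost with quantile normalization, without a trend and without any array but that of copper-treated mutants. The other *sqt-3* set, 174910_at, read 2738 and 2365, then 3119.9 and 3288, and did not pass. Among the other genes *elt-3* was lower with copper on both sets, and *bli-1* stayed below 100. The 7 intestinal sets, with none called, summed to 41351 without and 46661 with copper in the wild type, and to 38147 and 41675 in *kgb-1* mutants. The largest part was *asp-1* on 183470_at (21897 to 25902.5 in the wild type and 19244 to 23449 in *kgb-1* mutants). The other intestinal sets did not share a direction in either genotype. The part of these tissues in the rise of *zip-10* and *pqm-1* was not tested.

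The genes whose pattern over the 4 arrays lay nearest to that of *zip-10*, by the Euclidean distance between mean-centred log2 signals among 10733 probe sets with 1 symbol, were *oac-14* (distance 0.0872), *T27F6.8* (0.205) and *sdz-8* (0.293). *oac-14*, a gene of the O-acyltransferase family, went from 103 to 566 in the wild type and from 97.4 to 473 in *kgb-1* mutants. Nearest to *pqm-1* were *ptr-8*, of the Patched-related family (0.0712), *Y38F1A.8* (0.0934) and *T11G6.3* (0.110). *ptr-8* went from 310.1 to 650.2 in the wild type and from 328 to 767 in *kgb-1* mutants. With 4 arrays such a likeness says only that the same arrays were high.

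The genes beside these 2 in the genome did not pass for copper. *zip-10* lies on chromosome V between *skp-1* and *ceh-27*. On the brighter of its 2 probe sets, *skp-1* read 1566 without and 1498 with copper in the wild type, and 1613 and 1519 in *kgb-1* mutants (log2 change -0.08, adjusted p = 0.807 from limma). *ceh-27*, a homeobox gene, read 114 and 124, then 129 and 172 (log2 change 0.26, adjusted p = 0.676). *pqm-1* lies on chromosome II between *arrd-6* and *ptr-13*, which both stayed below 100 on all arrays.

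The other bZIP members differed little between arrays. *zip-2* read 2617 without and 2567 with copper in the wild type, and 2557 without and 2628 with copper in *kgb-1* mutants. The 4 values lie within 1.03-fold of each other, the tightest of all members (log2 change with copper 0.01, SE 0.0945, adjusted p = 0.987 from limma). *atf-7* had 3 probe sets, all bright. Without and with copper, 172407_x_at read 917 and 1133 in the wild type and 1046 and 1111 in *kgb-1* mutants, and 191216_s_at read 991 and 1095, then 957 and 1125. On 173892_s_at the copper-treated sample was the lower in the wild type (1319 and 1171) and the higher in *kgb-1* mutants (1283 and 1411). None passed for copper (log2 change -0.02 to 0.20, adjusted p = 0.539 to 0.972), and the sets of *atf-7* did not share a direction in wild-type animals. *cebp-1* read 6.01 without and 49.3 with copper in the wild type, and 22.1 and 10.3 in *kgb-1* mutants. All 4 signals are below the minimum, so no fold change is given.

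*skn-1* was measured by 2 probe sets, and on both the copper-treated wild-type sample was the lowest. On 174799_at the signal without and with copper was 463 and 342 in the wild type but 437 and 497 in *kgb-1* mutants. On 194169_s_at it was 506 and 337 in the wild type but 485 and 499.6 in *kgb-1* mutants. The copper log2 ratio was -0.44 and -0.59 in the wild type but 0.19 and 0.04 in *kgb-1* mutants, a difference of 0.63 on each set. This difference has no test, since 1 array per condition leaves no error for an interaction, and 10.5% and 10.3% of all tested probe sets had a difference at least as large. None of the 15 tested member sets differed by more than 1, a size that 3.1% of all tested probe sets passed. The copper ratios of the 2 genotypes had opposite signs on 9 of the 15 member sets and on 40.8% of all tested probe sets. In the test of a shared copper change neither set passed (log2 change -0.13, adjusted p = 0.812, and -0.27, adjusted p = 0.585 from limma). The third set, 188421_at, stayed below 100, with 45.1 and 56.8 in the wild type and 49.2 and 69.7 in *kgb-1* mutants, and did not have its lowest signal in copper-treated wild-type animals.

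The 3 measured probe sets of *daf-16* differed from each other. On 175678_at both copper-treated samples were the lower of their genotype, going from 246 to 166 in the wild type and from 252 to 193 in *kgb-1* mutants (log2 change -0.47, SE 0.163). The unadjusted p was 0.0265 and the adjusted p = 0.314 in limma, so the difference did not pass. Without and with copper, 175823_s_at read 379.9 and 379 in the wild type and 421 and 449.5 in *kgb-1* mutants. In the same order, 188176_s_at read 172 and 187, then 232 and 251, so that both *kgb-1* samples lay above both wild-type ones. Neither passed for copper (log2 change 0.05 and 0.12, adjusted p = 0.911 and 0.80 from limma). The set 181992_s_at stayed between 1.64 and 6.65. *daf-16* has several transcripts, and which of them each probe set reads is not given in the sources used here.

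*hsf-1* on 171962_x_at read 182 without and 194 with copper in the wild type, and 196 and 185 in *kgb-1* mutants. On 191962_s_at, in the same order, it read 174 and 171, then 206 and 253. On the second set both mutant samples lay above both wild-type ones, and the copper-treated mutant sample was the highest. Neither set passed for copper (log2 change 0.01 and 0.14, adjusted p = 0.992 and 0.793 from limma). *elt-2* on 193259_at read 216 without and 178 with copper in the wild type, and 172 and 183 in *kgb-1* mutants (log2 change -0.10, SE 0.186, adjusted p = 0.866). Its other set, 175269_at, gave 74.3, 73.2 and 70.3 and reached 101 in copper-treated mutants, so it entered the test through that array alone.

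**Figure D2:**
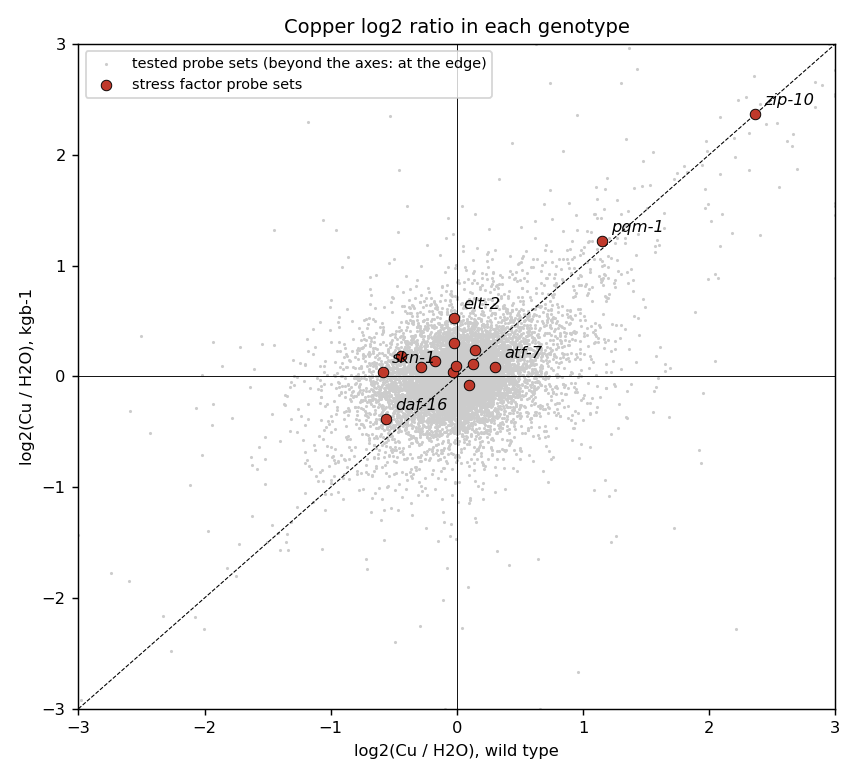
Copper log2 ratio in *kgb-1* mutants against that in wild-type animals for the 15 tested probe sets of the stress factor genes (red) and all 11266 tested probe sets (grey), 1 array per condition. On the dashed line both genotypes have the same ratio. *zip-10* at 2.37 and *pqm-1* near 1.2 lie on it, and the *skn-1* sets lie to the left of 0 for wild-type animals.

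The loss of *kgb-1* was compared with wild type under both treatments. None of the 15 probe sets passed for genotype in limma (adjusted p = 0.424 to 0.999), and 1 had an unadjusted p under 0.05. Of all tested probe sets, 0.337% were called, 0.0533% as higher and 0.284% as lower in the mutants. No member differed by over 2-fold between genotypes, a size reached by 0.601% upwards and 0.934% downwards without copper and by 1.19% and 1.44% with it. The log2 differences of the members ran from -0.18 for *zip-10* to 0.43 for *daf-16* on 188176_s_at (SE 0.161, adjusted p = 0.424), on which the mutants were the higher both without copper, 1.35-fold, and with it, 1.34-fold. On 191962_s_at *hsf-1* was 1.18-fold and 1.48-fold higher in the mutants (log2 difference 0.40, SE 0.177, adjusted p = 0.489). Under both treatments the mutants had the higher signal on 5 of the 15 sets, for *daf-16* (3), *pqm-1* and *hsf-1*, and the lower on 1, for *zip-10*. A higher signal under both treatments was found for 29.9% of all tested probe sets. The share with a lower signal under both was not counted, nor that with an unadjusted p under 0.05. Any difference in how the 2 strains were grown or collected cannot be told apart from genotype. Of the 3 RNA quality ratios given above, those for catalase and actin were also the higher on both wild-type arrays.

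**Figure D3:**
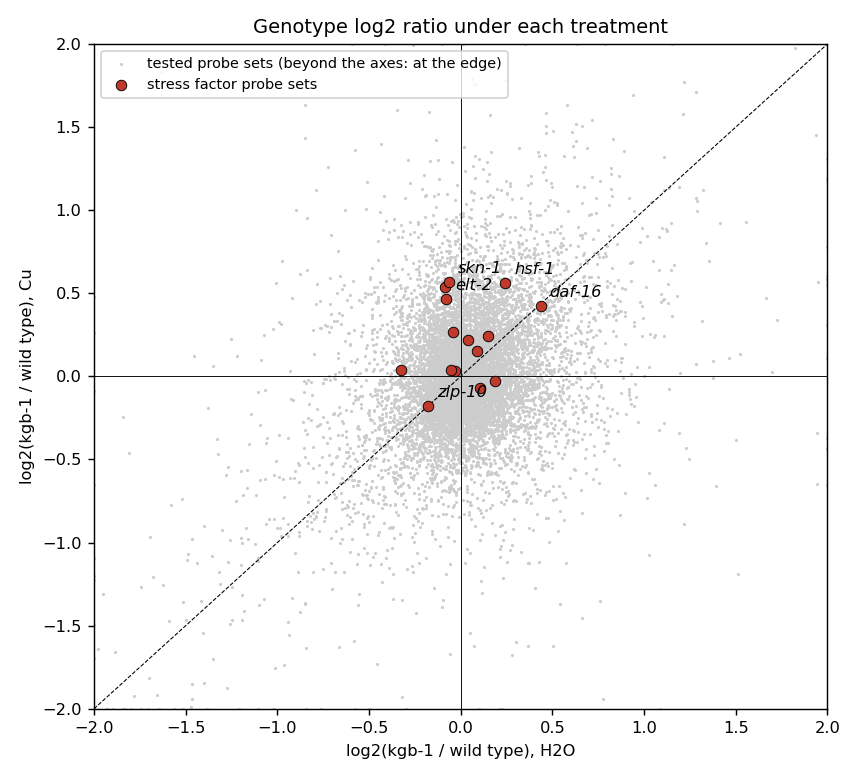
Log2 ratio of *kgb-1* mutants over wild-type animals with copper against that without copper, for the same probe sets and colours. The members lie between -0.33 and 0.57 on both axes, within the cloud of all tested probe sets.

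The other genes of these families and pathways were taken from lists that were chosen with earlier results of these data known. Of 27 tested probe sets for the remaining bZIP genes, 1 rose with copper and none fell (median log2 change 0.23, against 0.00 over all tested). This was 191088_at of *fos-1*, the Fos homolog, which went from 297 to 604 in the wild type and from 262 to 467 in *kgb-1* mutants (log2 change 0.93, adjusted p = 0.0303 from limma), a call kept in 7 of 14 alternatives (adjusted p = 0.0104 to 0.331). The other *fos-1* set, 175322_at, did not pass (log2 change 0.67, adjusted p = 0.331). *crh-1*, the CREB homolog, read 138 and 310.0 without and with copper in the wild type, then 112 and 214 in *kgb-1* mutants (log2 change 1.05, adjusted p = 0.0610). *ces-2*, a bZIP gene of programmed cell death, was higher in the mutants, with 358 against 147 without copper and 429 against 131 with it (log2 difference 1.5, adjusted p = 0.0397, kept in 5 of 13 alternatives with a range of 0.00416 to 0.457).

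None of 11 tested probe sets for other GATA factors passed for copper or for genotype, and the brightest, for *egl-27*, read 1824 without and 1649 with copper in the wild type and 1907 and 1827 in *kgb-1* mutants. The epidermal GATA factor *elt-3* came nearest, reading 411 without and 137 with copper in the wild type and 517 and 289 in *kgb-1* mutants on 175801_at. On this set and on 193640_s_at it did not pass (log2 change -1.21 and -1.13, adjusted p = 0.0529 and 0.0839 from limma). In each genotype the copper-treated sample was the lower on both sets. None of 17 probe sets for further stress factors passed either, among them *nhr-49*, a nuclear hormone receptor of fat metabolism (2159 without and 1889 with copper in the wild type, 2203 and 1900.1 in *kgb-1* mutants), and *mxl-2*, a gene of the Myc and Mondo network (1815 and 1224, then 1606 and 1687). Of 45 probe sets for upstream kinases, binding partners and inhibitors of the members, none passed. By mean signal over the arrays, the sets of the 14-3-3 gene *par-5* were the brightest, then 187954_s_at of *ftt-2*, also a 14-3-3 gene (5620). The next was 174631_at of *daf-18* (5467), above the other sets of *ftt-2*.

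Lists of genes known as targets of each factor were read in the same way, and no test compared the lists with each other. Of 10 probe sets for SKN-1 targets, 3 rose with copper and none fell, with a median log2 change of 0.60. *gst-30*, a glutathione S-transferase gene, went from 74.4 to 364 in the wild type and from 73.5 to 421 in *kgb-1* mutants, at least 3.64-fold and at least 4.21-fold, and was called in all 14 alternatives (log2 change at least 1.97 once its dim signals are set to 100, with an adjusted p = 0.0102 from limma). *sdz-8* went from 90.9 to 574 and from 97.4 to 410.2, at least 5.74-fold and at least 4.10-fold (log2 change at least 2.28 in the same way, adjusted p = 0.0111), a call lost without a trend (adjusted p = 0.0761). *gcs-1*, which encodes the rate-limiting enzyme of glutathione synthesis, went from 746 to 1185 and from 694 to 1341 on 191226_s_at (log2 change 0.81, adjusted p = 0.0388 from limma, kept in 9 of 13 alternatives with a range of 0.0112 to 0.208). Its other set, 173813_at, did not pass (log2 change 0.54, adjusted p = 0.116). *gst-4* read 713 and 1372 in the wild type and 842 and 1110.1 in *kgb-1* mutants (log2 change 0.67, adjusted p = 0.139). *skn-1* itself did not pass. On its 2 measured sets the signal in wild-type animals was the lower with copper, and on the third, below 100, it was the higher (45.1 and 56.8).

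Of 10 probe sets for ATF-7 targets, 4 rose and none fell (median log2 change 0.15). *sysm-1*, an immune response gene, went from 364 to 979 in the wild type and from 156 to 1068 in *kgb-1* mutants (log2 change 2.1, adjusted p = 0.0295 from limma, kept in 10 of 14 alternatives with a range of 1.25e-04 to 0.223). Both sets of *C17H12.8* rose, the brighter from 739 to 1529 and from 479.8 to 1116 (log2 change 1.13, adjusted p = 0.00933, kept in 10 of 14 alternatives with a range of 0.00195 to 0.272). The lectin gene *clec-67* went from 283 to 505 and from 121 to 301, with an adjusted p = 0.0454 that passed in 4 of 14 alternatives (0.0156 to 1.00). The lysozyme gene *lys-2* was lower in the mutants, 2922 against 1544 without and 3795 against 1506 with copper (log2 difference -1.13, adjusted p = 0.0384, kept in 5 of 13 alternatives with a range of 0.00189 to 0.347). Of 2 tested probe sets for ZIP-2 and CEBP-2 targets, *irg-2*, an infection response gene, rose from 1549.7 to 3431 and from 1311 to 2406 (log2 change 1.01, adjusted p = 0.0120, kept in 10 of 14 alternatives with a range of 0.00183 to 0.194). *irg-1* read 89.1 and 190.4 in the wild type against 49.6 and 61.4 in *kgb-1* mutants (adjusted p = 0.469).

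None of 5 probe sets for HSF-1 targets passed for copper, with a median log2 change of 0.65. For *hsp-1*, *hsp-16.2*, *hsp-16.41* and *hsp-70* the copper-treated sample was the higher in both genotypes, and for *hsp-12.3* it was the lower in both. The other genes of this list of 11 had no probe set that the annotation gives to them alone, so they were not read. *hsp-70* read 259.7 and 382 without and with copper in the wild type and 234 and 424 in *kgb-1* mutants (log2 change 0.71, adjusted p = 0.105 from limma). None of 10 for DAF-16 targets passed, with a median of 0.01. The superoxide dismutase gene *sod-3* read 109.8 and 136, then 108 and 141, and the metallothionein gene *mtl-1* 386 and 313, then 421 and 276, in the same order. None of 6 for PQM-1 targets passed for copper, whereas *dod-23* was lower in the mutants (6045 against 3082 without and 6596 against 3655 with copper, log2 difference -0.91, adjusted p = 0.0219, kept in 7 of 14 alternatives with a range of 0.00202 to 0.373). None of 15 for ELT-2 targets passed, among them the protease genes *cpr-6* and *asp-1* and the gut esterase gene *ges-1*. Of the 3 tested probe sets for ZIP-10 targets none passed for copper. Both sets of the cathepsin gene *cpr-3* were lower in the mutants, and 1 of the 2 was called for genotype. The called set, 172793_x_at, read 337 and 454 in the wild type and 90.7 and 89.7 in *kgb-1* mutants (adjusted p = 0.0219, kept in 6 of 13 alternatives). Both mutant signals of this set lie below 100, and with such signals raised to 100 the log2 difference was -1.97 and the call was lost (adjusted p = 0.0572). The other set, 172069_x_at, read 361 and 350 in the wild type and 93.4 and 141 in *kgb-1* mutants (log2 difference -1.63, adjusted p = 0.0548 from limma). *asp-17*, an aspartyl protease gene of the cold response, stayed below 100.

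**Figure D4:**
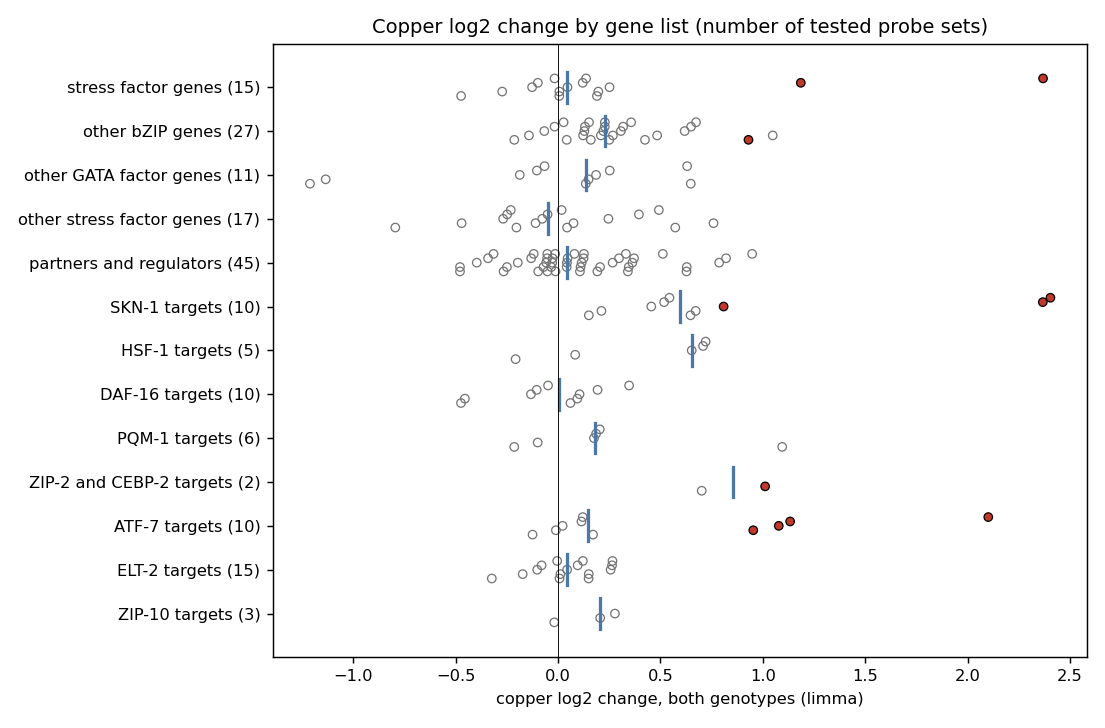
Copper log2 change shared by both genotypes (limma, 4 arrays) for each tested probe set, by gene list, with the number of probe sets in brackets. Filled red circles passed at an adjusted p under 0.05, open circles did not, and blue bars are medians. The filled circles of the stress factor genes are *zip-10* and *pqm-1*, and those of the target lists lie with SKN-1, ATF-7 and ZIP-2 and CEBP-2.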

How the data were processed

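Each RNA sample was hybridized a single time, at an outside company. The deposited values are linear MAS5 intensities, scaled so that the mean of each array without the highest and lowest 2% of probe sets is 500.1. The MAS5 version is not given in the sources used here. Of 22625 probe sets, 77 controls were left out. Probe sets were named by the platform's gene table, in which 20766 have 1 symbol, 887 several and 895 worm probe sets none. Probe sets with several symbols were not named. Gene order came from RefSeq annotation of WBcel235. Log2 signals were fitted with limma 3.58.1 in R 4.3.3 (copper and genotype as factors, trended moderation, Benjamini-Hochberg adjustment, 1 residual and 5.19 prior degrees of freedom) with 100 as the signal that a probe set had to reach on any array. The fit was run on simulated data with the same noise for every probe set and copper changes equal in both genotypes. Such data check the code and say nothing of the error of these arrays. A fold change uses 100 in place of a dimmer signal and is then a lower bound. With 1 array per condition nothing shows the spread between cultures, and an exact permutation of 2 against 2 arrays cannot go below p = 0.333. The number of arrays limits the precision.

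The members and gene lists were chosen with earlier results of these data known. Named are all probe sets of the members, the 3 nearest patterns of each called member, the called members of each other list or up to 2 of the brightest where none was called, and up to 4 targets of each factor. The values of *elt-3*, *crh-1* and *hsp-70* and of the genes beside *zip-10* and *pqm-1* were known when these were picked. Alternatives were signal minimums of 50, 200 and none, quantile normalization, equal medians, an offset of 32, signals below 100 raised to 100, probe sets with a plain suffix, moderation without a trend, single-factor models and each array left out. Promoter and protein sequences were not analysed here. Plots were drawn with matplotlib 3.10.9.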

Additional observations from a re-analysis of the deposited data

Results flagged for a closer look

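For 8 member probe sets with all signals of at least 100, the copper-treated sample was the higher in 1 genotype and the lower in the other. The difference between genotypes was not tested, since each condition has 1 array. By the looser rule of the test, a signal of 100 on any array, opposite signs were found on 9 of the 15 member sets. The share of all tested probe sets by that rule was 40.8%. No share was counted for probe sets with all signals of at least 100. The differences below are the copper log2 ratio in *kgb-1* mutants minus that in wild-type animals. They were 0.63 for *skn-1* on 174799_at and 0.63 on 194169_s_at, 0.37 for *elt-2* on 193259_at, 0.32 and -0.18 for *hsf-1* on 191962_s_at and 171962_x_at, 0.31 for *atf-7* on 173892_s_at, 0.097 for *daf-16* on 175823_s_at and 0.067 for *zip-2*.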

How the results depend on the processing

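The fit sets copper against water within each genotype. No further pairing by replicate was possible, since each condition has 1 array. The rise of *zip-10* passed in all 13 alternatives that hold its probe set (adjusted p = 9.97e-06 to 0.0425 from limma) and that of *pqm-1* in 13 of 14 (adjusted p = 6.96e-04 to 0.0985). The number of members called higher with copper was 1 in place of 2 with probe sets of a plain suffix, where *zip-10* is not on the list, and 1 without a trend, where *pqm-1* was lost. No member was called lower with copper, or for genotype, in any alternative. Without the copper-treated wild-type array the log2 values of *skn-1* on 194169_s_at changed sign, to 0.012 for copper and -0.041 for genotype, and with an array left out they ran from -0.56 to 0.012 and from -0.041 to 0.55. Over all probe sets, 172 were called for copper against 326 with equal medians, 69 with a plain suffix, 40 without a trend, 90 without genotype in the model and 72 to 381 with an array left out (87 without untreated wild-type animals, 72 without untreated and 381 without copper-treated mutants). For genotype 38 were called, against 63 and 23 with signal minimums of 50 and 200, 141 with equal medians, 2 with signals raised to 100, 12 with a plain suffix, 0 without a trend, 2 without copper in the model and 0 to 3 with an array left out. The cause of these shifts was not tested. Of the listed genes called, *gst-30*, *sdz-8* and *sysm-1* were called with each array left out. The copper calls of *gcs-1* and *irg-2* were lost without either untreated array, that of *fos-1* without any array but that of copper-treated mutants, that of *C17H12.8* on 184533_at without copper-treated wild-type animals or untreated mutants, and those of its other set and of *clec-67* with any array left out. The genotype calls of *ces-2*, *dod-23*, *lys-2* and *cpr-3* were lost with any array left out. With an array left out the second factor was also dropped, and the lone sample of an arm was assumed to vary like the others.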

Other observations

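A low signal in copper-treated wild-type animals, as on *skn-1*, was counted over all probe sets after it was seen. That array held the lowest signal on 3350 of 11266 tested probe sets, more than any other array (2244 to 2850). With the wild-type copper log2 ratio of *skn-1* on 174799_at, -0.44, as the upper limit and a mutant ratio of 0 or more, 283 probe sets (2.51%) had this pattern. Both measured *skn-1* sets are among them by the choice of the limit. Of the listed genes, 1 set each of *ftt-2*, *daf-18*, *akt-2*, *mxl-2*, the germline marker *oma-2* and the muscle marker *unc-89* also had it. On *ftt-2*, a 14-3-3 gene, this set read 5627 without and 2716 with copper in the wild type, and 6227 and 6643 in *kgb-1* mutants. Its other 2 sets read 3701 and 4668, and 5326 and 5878 in the wild type. The other sets of *daf-18* (1679 and 1833) and *akt-2* (105 and 195) were also the higher with copper in the wild type.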
